A study of Mus musculus with 1 sample.

Results

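The 10 genes described here mark the oligodendrocyte lineage: Olig1, Olig2, Pdgfra, Cspg4, Gpr17, Bcas1, Lhfpl3, Neu4, Matn4 and C1ql1. They were chosen by symbol from the 51912 genes of the count table, and all 10 are listed in it. Single-cell RNA sequencing (sc-RNA Seq) had been carried out on the cerebral cortex of wildtype C57BL/6 mice at P0, the day of birth, with droplets that count each captured transcript by its unique molecular identifier (UMI). The study asked how human SERPINA3 in neural progenitors changes the cortex, and its design text also names a SERPINA3 knock-in with Nestin-Cre and triplicates, which were not analysed here. The data are 1 WT library of 11062 cells and 90346034 UMIs, with a median of 7196.5 UMIs and 3037 detected genes per cell. The tissue is called telencephalic in the sample title and cerebral cortex in its other labels, and the number of mice behind the library is not given. Since there was a single library, no test between samples was possible. The brackets below hold exact 95% intervals that cover counting error only, and a gene is called higher or lower past a fold of 2.

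Oligodendrocyte precursor cells (OPCs) arise from radial glia and other dividing progenitors, spread through the cortex around birth and later mature into the oligodendrocytes that wrap axons in myelin. The related basic helix-loop-helix factors Olig1 and Olig2 are made early in this lineage, but also in other progenitors and in some astrocytes. Pdgfra, the receptor for the growth factor PDGF-A, keeps OPCs dividing, and Gpr17 and Bcas1 are known from cells that are about to mature.

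The cells were clustered with the 10 genes left out, and clusters were named from markers that are not among them. A first clustering set apart 930 progenitor-like and glial cells, 8.41% of the 11058 cells kept. Clustered again, these held 153 OPC-like cells, led by Sox10, Cntn1 and Sulf2, with a median of 7086 UMIs. A subcluster of 138 cycling progenitor-like cells was led by the mitosis genes Ube2c, Top2a and Ccnb1, and 127 cells led by the DNA replication genes Ung, Hells and Mcm3 stayed unnamed. Radial glia or astrocyte-like cells fell into 193 cells led by Cntnap2, Clu and Entpd2 and 99 cells led by Id3, Fos and Junb. The remaining 3 subclusters were 48 cells led by 1500015O10Rik, 106 unnamed cells with a median of 957 UMIs, and 66 cells led by neuron genes, of which 64 (97.0%) were marked as doublets. Their part in the results was not tested, and counts of genes between dividing and non-dividing progenitor-like cells are given with and without the last pair of subclusters, which leaves 758 cells. By the share of UMIs from 46 division genes, 351 progenitor-like cells (37.7%) were dividing and 579 were not, with 70 cells within 1.5-fold of the cut.

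Promoter windows show how the genes of the lineage differ in sequence where transcription starts. In the RefSeq promoter table for GRCm38.p6, 6 of the 10 genes have a window, and 3 are shown because the levels below set them apart: Olig2 was about as high in dividing as in non-dividing progenitor-like cells, whereas Pdgfra and Lhfpl3 were higher in the latter. This contrast was not seen within OPC-like cells, where the non-dividing over dividing ratios were 1.39, 1.28 and 1.06 in this order. Each window holds the 250 bases before the start on the + strand: chr16:91225300-91225549 for Olig2, chr5:75152001-75152250 for Pdgfra and chr5:22745804-22746053 for Lhfpl3. Capitals mark E-boxes, the letters CANNTG that basic helix-loop-helix proteins such as Olig2 can bind and that read the same on both strands.
Olig2: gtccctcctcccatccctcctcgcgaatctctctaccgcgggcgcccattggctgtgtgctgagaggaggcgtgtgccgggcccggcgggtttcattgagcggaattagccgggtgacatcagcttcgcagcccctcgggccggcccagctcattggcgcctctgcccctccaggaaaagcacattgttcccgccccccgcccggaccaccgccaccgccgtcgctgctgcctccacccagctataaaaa
Pdgfra: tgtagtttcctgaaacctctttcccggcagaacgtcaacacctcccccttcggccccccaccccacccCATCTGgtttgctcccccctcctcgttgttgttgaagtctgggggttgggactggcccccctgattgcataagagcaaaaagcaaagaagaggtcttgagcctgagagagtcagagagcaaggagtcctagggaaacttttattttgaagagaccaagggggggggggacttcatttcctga
Lhfpl3: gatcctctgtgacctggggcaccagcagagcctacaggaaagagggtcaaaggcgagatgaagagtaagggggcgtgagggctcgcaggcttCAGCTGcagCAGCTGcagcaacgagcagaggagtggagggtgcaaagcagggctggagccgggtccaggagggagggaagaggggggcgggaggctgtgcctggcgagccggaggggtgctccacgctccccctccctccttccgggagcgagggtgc
The Olig2 window held 0 E-boxes, the Pdgfra window 1, starting 182 bases before the start, and the Lhfpl3 window 2, at 158 and 149 bases. Among all 32850 windows of this length 66.2% held at least 1 and 31.8% at least 2, so these numbers are common. Of the other windows, that of Cspg4 held 0 E-boxes and those of Matn4 1 and 0, both genes being higher in non-dividing cells. The window of Neu4, which is given no fold, held 1. Such a match describes letters and not binding, and a link to the levels was not tested.

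Across the library the genes were rare but concentrated. Against the other progenitor-like cells, 9 of 9 genes with at least 20 UMIs were higher in OPC-like cells, where 7.21% of all 13156 genes tested were. Their median fold was 24.8, against 0.966 for all genes. Gpr17 reached 20 UMIs only through the OPC-like cells, with 7 UMIs in the others. Neu4, a sialidase that trims sugar chains, had 5 UMIs in the library, all in 2 OPC-like cells, and is given no fold.

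Olig1 was at 1738 CPM (UMIs of the gene per 1000000 UMIs; 1657 to 1822) in OPC-like cells, 331 CPM (290 to 377) in the Id3-led cells, 293.5 CPM (259 to 331) in the Ung-led cells, 261 CPM (237 to 286) in the Ube2c-led cells and 23.0 CPM (15.99 to 31.9) in the Cntnap2-led cells. The 3 middle classes lie close together, and the intervals of the Id3-led and Ung-led cells overlap. Olig2 was at 772 CPM (718 to 828.5) in OPC-like cells, 328.5 CPM (292 to 368.5) in the Ung-led, 193 CPM (173 to 215) in the Ube2c-led, 162 CPM (133 to 195) in the Id3-led and 11.2 CPM (6.50 to 17.9) in the Cntnap2-led cells. Both genes thus were high in OPC-like cells and intermediate in 3 other classes, but their order in between differed.

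Receptor transcripts were more restricted. Pdgfra reached 1002 CPM (941 to 1066) in OPC-like cells, 79.3 CPM (66.4 to 94.0) in the Ube2c-led and 56.4 CPM (41.9 to 74.4) in the Ung-led cells. In the Id3-led cells its 6 UMIs came from 1 cell, and among the Cntnap2-led cells it was found in 0 of 193 cells, which allows a share of cells with a Pdgfra UMI of up to 1.55% (3 counts of the total). Few or no Pdgfra UMIs were thus counted in radial glia or astrocyte-like cells that held Olig1 and Olig2 UMIs. Gpr17, a receptor of maturing precursors, was at 68.3 CPM (53.0 to 86.5) in OPC-like cells, and 68 of its 82 UMIs in the library lay there.

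Among genes of the surface and matrix, Lhfpl3, a tetraspan-like membrane protein, was at 520 CPM (476 to 567) in OPC-like cells and 11.9 CPM (7.29 to 18.4) in the Ube2c-led cells. It had 1 UMI in the Ung-led cells and 7 UMIs, all from 1 cell, in the Id3-led cells. Cspg4, the proteoglycan NG2, was at 315 CPM (281 to 352) in OPC-like, 20.3 CPM (11.1 to 33.99) in Id3-led and 6.56 CPM (3.15 to 12.1) in Cntnap2-led cells. Matn4, a matrix protein, was at 62.2 CPM (47.7 to 79.8) and C1ql1, a secreted C1q-like protein, at 197 CPM (170 to 226) in OPC-like cells. Bcas1, a protein of early myelinating cells, was at 131.5 CPM (110.0 to 156) there. None of Matn4, C1ql1 and Bcas1 passed 11 CPM in the Ube2c-led, Ung-led, Id3-led or Cntnap2-led cells.

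**Figure D1:**
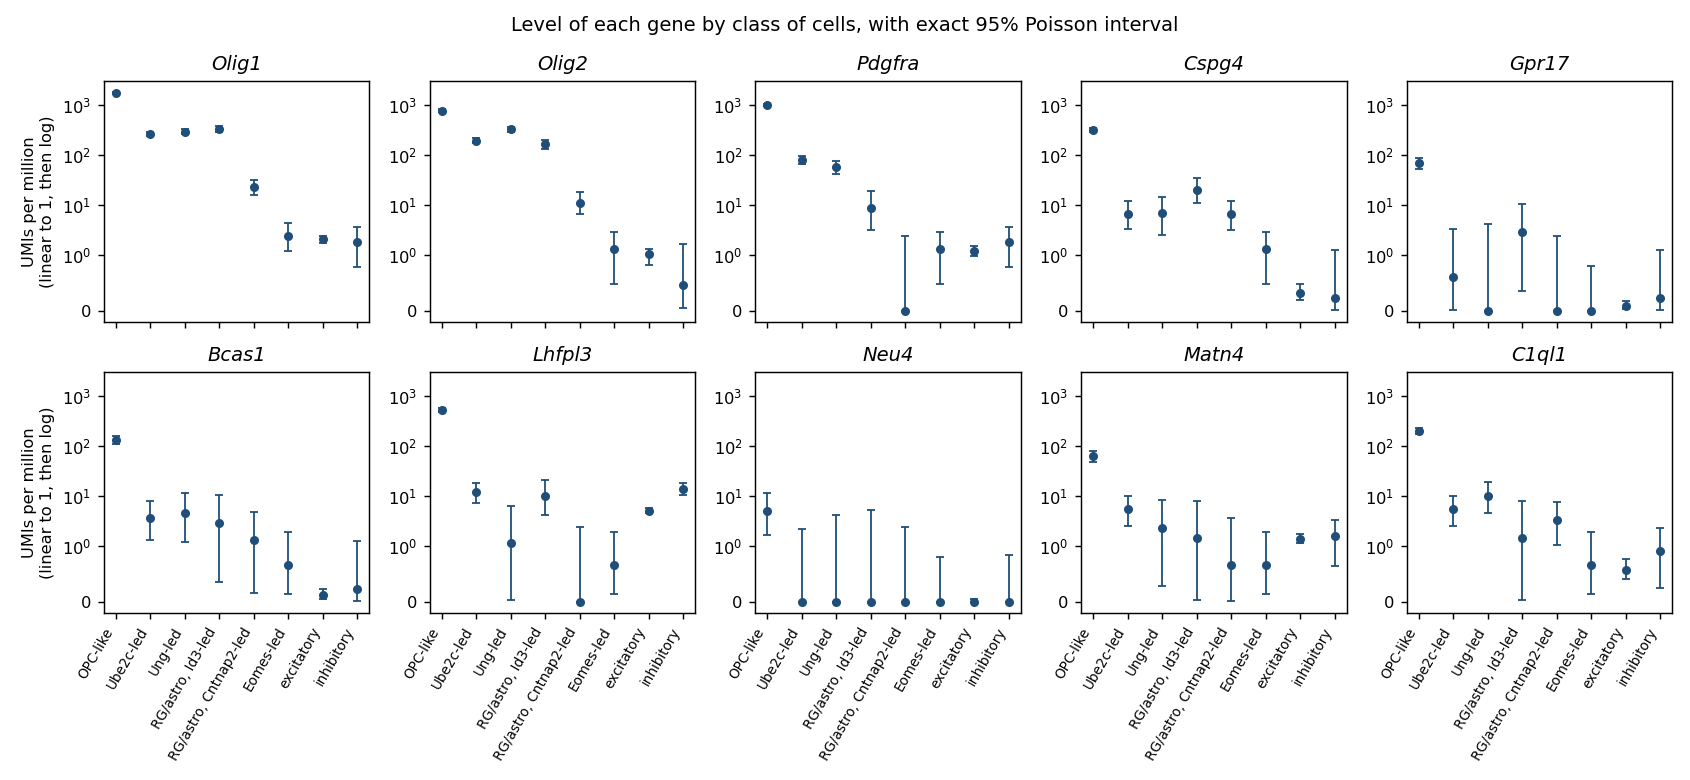
Level of each gene in CPM (linear up to 1, then a log axis) by class of cells. Points are sums over the cells of a class in the 1 library and bars exact 95% Poisson intervals; among the classes plotted OPC-like cells have the highest point for every gene, and Olig1 and Olig2 stay above 150 in the Ube2c-led, Ung-led and Id3-led cells.

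Dividing and non-dividing progenitor-like cells were then set side by side. All genes but Olig1 and Olig2 that could be compared were higher in non-dividing cells: 7 of 9 genes passed a fold of 2, and 0 were lower. Over all 13156 genes tested, 10.6% were higher and 6.62% lower in non-dividing cells. The median fold was 3.52 for the 9 genes and 1.07 for all genes. Of the 7, Gpr17 and Matn4 had 6 and 16 UMIs in dividing cells and reached 20 UMIs only through the non-dividing ones. In the 758 cells without the shallow and neuron-led subclusters, the count was again 7 of 9, against 11.5% of genes higher and 7.73% lower.

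Olig2 was at 223 CPM (207 to 239.5) in dividing and 227.5 CPM (213 to 242.5) in non-dividing cells, a ratio of 1.02 (0.927 to 1.13). Olig1 was at 286 CPM (268 to 305) and 491 CPM (470.2 to 513), a ratio of 1.72 (1.59 to 1.86). Called dividing were 30 of the 106 shallow and 23 of the 66 neuron-led cells. Without these subclusters the Olig2 ratio was 1.11 (1.002 to 1.23) and the Olig1 ratio 1.855 (1.71 to 2.01). So these related factors differed in their balance: there were 0.779 Olig2 UMIs (0.706 to 0.859) for each Olig1 UMI in dividing cells and 0.463 (0.428 to 0.501) in non-dividing cells. The Ung-led cells had the highest such ratio at 1.12 (0.944 to 1.33), against 0.741 in the Ube2c-led, 0.489 in the Id3-led and 0.444 (0.408 to 0.484) in the OPC-like cells. Direct comparison of the dividing subclusters gave 1.70-fold (1.45 to 1.998) more Olig2 in Ung-led than in Ube2c-led cells, whereas the Olig1 ratio was 1.13 (0.962 to 1.32). Of 4 genes with enough UMIs there, 0 were higher past a fold of 2, against 3.66% of all genes. Lhfpl3 had 1 UMI in the Ung-led and 20 in the Ube2c-led cells and reached 20 UMIs only through the latter. Its lower level is therefore not counted, and 5.16% of all genes were lower.

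Pdgfra was at 89.95 CPM (79.96 to 101) in dividing and 237 CPM (223 to 252.5) in non-dividing cells, 2.64-fold (2.31 to 3.01) higher in the latter. Gpr17 had 6 UMIs in dividing cells and 69 in non-dividing ones, a ratio of 9.07 (3.96 to 25.6). Lhfpl3 followed with 26 against 123.5 CPM, a ratio of 4.75 (3.77 to 6.05). Over the alternatives run, the ratios went from 2.32 to 3.11 for Pdgfra, 6.26 to 44.8 for Gpr17 and 2.99 to 9.43 for Lhfpl3. Most UMIs of these 3 genes in progenitor-like cells lay in OPC-like cells. Bcas1 was 4.29-fold (2.79 to 6.86), C1ql1 3.85-fold (2.75 to 5.50), Cspg4 3.52-fold (2.72 to 4.61) and Matn4 3.40-fold (1.95 to 6.28) higher in non-dividing cells. Neu4 had 2 UMIs in dividing and 3 in non-dividing cells.

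The makeup of both classes moved with these ratios, as 136 of the non-dividing but 17 of the dividing cells were OPC-like. The comparison was therefore repeated within OPC-like cells, where 11.1% of cells were dividing, a share that ran from 3.92% to 24.2% with the division cuts tried. There, 1 of 9 genes passed a fold of 2, with 12% of all 7282 genes tested, and 0 were lower, with 4.15% of genes. That gene was Matn4, with 3 UMIs in dividing cells and a ratio of 2.73 (0.891 to 13.6) whose interval holds 1 and which ran from 1.265 to 6.03 over the alternatives run. Olig2 was at 576 CPM in dividing and 799 CPM in non-dividing OPC-like cells, a ratio of 1.39 (1.08 to 1.80). Pdgfra was at 806 and 1029 CPM, a ratio of 1.28 (1.04 to 1.59). Over the alternatives run, the Olig2 ratio went from 0.996 to 1.51 and the Pdgfra ratio from 1.08 to 1.52. Olig1 (1.13, 0.969 to 1.32), Lhfpl3 (1.06, 0.809 to 1.41), Cspg4 (0.831, 0.604 to 1.17), Bcas1 (1.26, 0.710 to 2.44), C1ql1 (1.37, 0.845 to 2.37) and Gpr17 (1.75, 0.712 to 5.58) had intervals that hold 1. Differences inside these intervals were not detectable. The intervals rest on UMI counts and do not measure the spread among the 17 dividing cells, which holds for Olig2 and Pdgfra too. Division genes could shape the clusters, and these 17 cells had a median of 2173 CPM of division genes. The Ube2c-led cells had 14070 CPM and the Ung-led cells 4649 CPM. Any precursors that clustered with those cells are counted neither in the 11.1% nor in these ratios. Outside OPC-like cells, and without the shallow and neuron-led subclusters, 281 dividing cells held 175 Pdgfra UMIs at 63.8 CPM, OPC-like cells being 15.7-fold (13.4 to 18.6) higher.

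**Figure D2:**
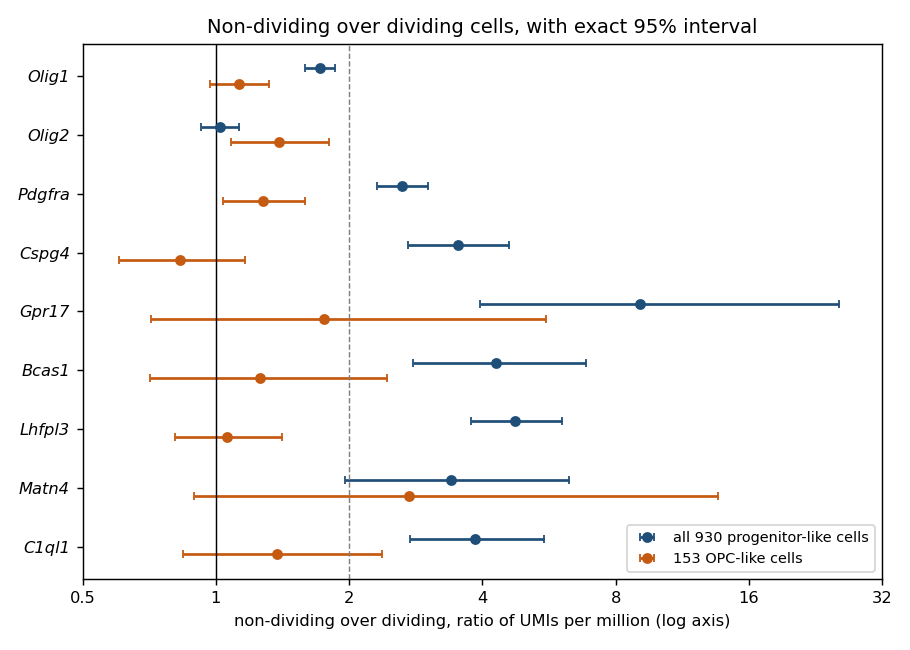
Ratio of CPM in non-dividing over dividing cells (log axis) for the 9 genes with at least 20 UMIs, over all progenitor-like cells and within OPC-like cells. Bars are exact 95% intervals, the solid line marks 1 and the dashed line 2; over all progenitor-like cells 7 genes lie beyond 2, and within OPC-like cells only Matn4 does, with an interval that holds 1.

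Shares of cells with a UMI depended on depth. Dividing cells were deeper, with a median of 9432 UMIs against 7086, so that cells were also thinned to 2000 UMIs (44 dividing and 92 non-dividing cells are shallower and were left out). Olig2 was found in 49.6% (44.2 to 54.9) of dividing and 36.6% (32.7 to 40.7) of non-dividing cells, but in 28.3% and 27.5% after thinning. Olig1 was found in 44.2% and 43.5%, and in 27.7% and 35.5% after thinning. The higher unthinned share of Olig2 in dividing cells is thus not seen at equal depth. For Pdgfra the shares were 21.4% (17.2 to 26.03) and 24.2% (20.7 to 27.9), and 10.1% and 18.7% after thinning. Lhfpl3 was in 6.55% and 18.3% of cells, and in 2.61% and 12.7% after thinning. As background, neuron-like cells, at a median of 8944 UMIs, had Olig1 in 1.29%, Olig2 in 0.646% and Pdgfra in 0.580% of cells.

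Read the other way, 45.1% (40.04 to 50.2) of progenitor-like cells with Olig2 were dividing, against 37.7% of all. Of cells with Lhfpl3 17.8% (11.7 to 25.5) were dividing, of those with Cspg4 19.4% (13.3 to 26.9) and of those with Gpr17 10.9% (3.63 to 23.6). After thinning these shares were 39.4% for Olig2, 11.4% for Lhfpl3, 23.3% for Cspg4 and 18.2% for Gpr17, against 38.7% of all thinned cells.

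Same-cell detection showed whether the genes marked the same cells. Of dividing cells with Olig1, 79.4% (72.1 to 85.4) also had Olig2, against 26.02% (20.03 to 32.8) of those without Olig1. In non-dividing cells these shares were 72.6% (66.7 to 78.0) and 8.87% (6.02 to 12.5). After thinning they were 44.7% and 22.1% in dividing cells and 59.0% and 10.2% in non-dividing cells. Cells with Olig2 and no Olig1 UMI made up 14.5% (11.01 to 18.7) of dividing and 5.01% (3.38 to 7.11) of non-dividing cells, and 15.96% and 6.57% after thinning. Olig2 was thus found without Olig1 more often in dividing cells at both depths.

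Pdgfra stood on Olig-positive cells to a different degree. It was found in 32.3% (24.98 to 40.2) of dividing and 47.2% (40.9 to 53.6) of non-dividing cells with Olig1, and in 12.8% (8.43 to 18.3) and 6.42% (4.02 to 9.65) of those without it. Cells with Olig1 or Olig2 but no Pdgfra UMI made up 41.3% (36.1 to 46.7) of dividing and 27.1% (23.5 to 30.9) of non-dividing cells, and 36.5% and 23.6% after thinning. By class, Olig1 or Olig2 together with Pdgfra was found in 81.7% of OPC-like, 18.8% of Ube2c-led, 11.8% of Ung-led, 1.01% of Id3-led and 0% of Cntnap2-led cells. Olig1 or Olig2 without Pdgfra was found in 13.1%, 39.1%, 62.2%, 73.7% and 14.5% of these classes. Most Id3-led radial glia or astrocyte-like cells and most Ung-led cells therefore held Olig UMIs and no Pdgfra UMI. The shares by class are unthinned, at median depths of 12710 UMIs in Ube2c-led cells and 7086 to 7774 in the other classes. Lack of a Pdgfra UMI does not show that a cell lacks the transcript, and Ung-led cells held it at 56.4 CPM. Id3-led cells had 14.4-fold (10.1 to 21.2) more Olig1 and 14.5-fold (8.68 to 25.8) more Olig2 than Cntnap2-led cells, and Cspg4 was 3.09-fold (1.28 to 7.77) higher. Of all genes, 4.11% were higher and 8.46% lower there. Olig2 and Cspg4 had 17 and 10 UMIs in the Cntnap2-led cells, and the other members were too rare in both classes to be compared. Cspg4 had 14 UMIs in the Id3-led cells. The 1 Id3-led cell with Pdgfra also held UMIs of Olig1, Olig2, Cspg4, Gpr17, Bcas1, Lhfpl3 and Matn4.

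**Figure D3:**
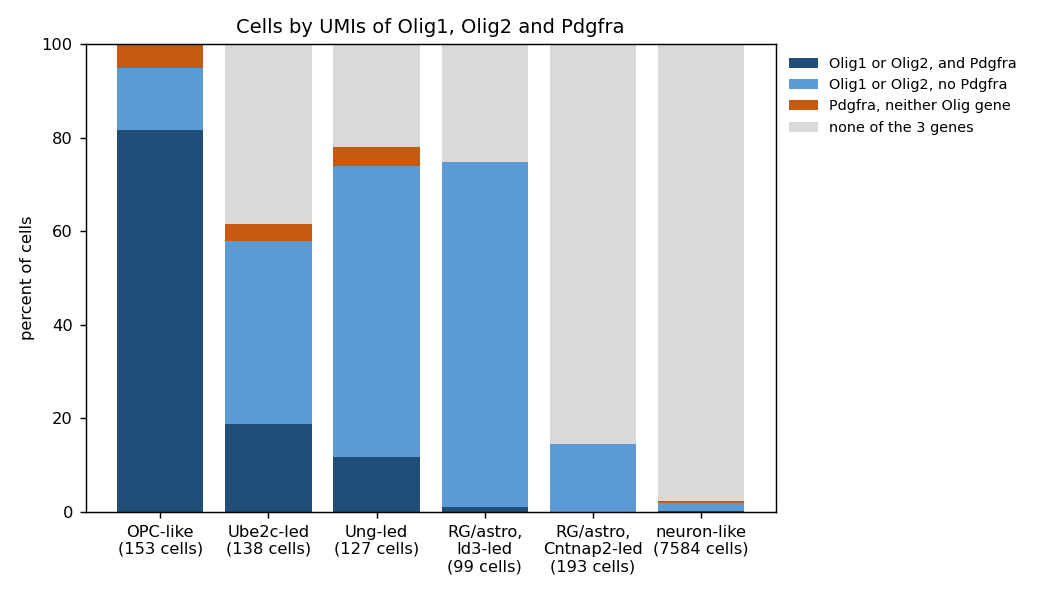
Percent of cells of each class with a UMI of Olig1 or Olig2 and of Pdgfra, of the former alone, of Pdgfra alone and of neither, with the number of cells under each bar. Shares are unthinned. OPC-like cells hold mostly the combination (81.7%), Id3-led cells mostly Olig genes without Pdgfra (73.7%) and Cntnap2-led cells mostly neither (85.5%).

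Some genes that were not used to split these cells differed as well, of which a selection of lineage and glial genes is given here. Over the 758 cells, those with Olig and Pdgfra UMIs (167 cells), those with Olig and no Pdgfra UMI (258 cells) and those with neither (315 cells) had 232, 6.77 and 0 CPM (0 UMIs, where 3 counts allow up to 1.21 CPM) of Sox10, a factor of the committed lineage. Aldoc, an astrocyte enzyme, went the other way with 60.4, 685 and 1394 CPM, as did the glutamate transporter Slc1a3 with 239, 1409 and 1537 CPM. Other glial genes did not follow this order: the factor Sox9 was at 460, 413.5 and 570 CPM, the water channel Aqp4 at 1.51, 63.2 and 52.6 CPM, and S100b at 13.6, 1.35 and 0 CPM. Egfr, the EGF receptor, was highest in the Olig-positive cells without Pdgfra at 292 CPM, against 131 and 77.3 CPM.

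Genes found mainly in OPC-like cells were often found on Pdgfra-positive cells. Pdgfra was itself in 133 of 153 OPC-like cells, so the shares of pairs below do not stand apart from class. They are also unthinned. Of non-dividing cells with Gpr17, 40 of 41 (97.6%) also had Pdgfra, and of dividing cells 5 of 5. Of cells with Lhfpl3, Pdgfra was found in 90.6% (83.3 to 95.4) of non-dividing and 82.6% (61.2 to 95.05) of dividing cells, against 9.30% and 17.1% of those without Lhfpl3. For Bcas1 these shares were 86.7% and 75%, and for Cspg4 77.6% and 67.9%. For C1ql1 they were 79.3% (69.3 to 87.2) and 50% (31.9 to 68.1; 16 of 32 cells), and for Matn4 91.1% (78.8 to 97.5) and 54.5% (23.4 to 83.2; 6 of 11 cells). Olig1 was found in 74 of 75 non-dividing cells with Bcas1 (98.7%) and in 12 of 16 dividing ones (75%, 47.6 to 92.7). At least 4 of the 10 genes were found in 7.98% (5.37 to 11.3) of dividing, 20.2% (17.0 to 23.7) of non-dividing and 79.7% (72.5 to 85.8) of OPC-like cells, and in 3.26%, 15.4% and 60.3% after thinning. The median OPC-like cell had 6 of the genes.

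OPC-like cells were not uniform in these genes. When all progenitor-like cells were clustered at a finer resolution, chosen after the data had been seen, the OPC-like cells were 120 cells led by Sox10, Cntn1 and Sulf2 and 34 cells led by Dbx2, Dll1 and Me3, at medians of 6802 and 7472 UMIs. These are not an exact division of the 153 cells above, since cells could change class. Olig1 was at 1765 and 1627 CPM in these, a ratio of 1.09 (0.971 to 1.21), and Olig2 at 756 and 804 CPM, a ratio of 0.941 (0.801 to 1.11). Pdgfra, by contrast, was at 1268 CPM in the Sox10-led and 211 CPM in the Dbx2-led cells, 6.02-fold (4.57 to 8.07) higher in the former. Lhfpl3 was at 689 and 19.5 CPM, a ratio of 35.3 (15.04 to 109), Cspg4 at 410 and 35.1 CPM, a ratio of 11.7 (6.07 to 25.8), and C1ql1 at 252.5 and 31.2 CPM, a ratio of 8.09 (4.02 to 19.0). Olig1 and Olig2 thus lay close in these cells, whereas Pdgfra, Lhfpl3, Cspg4 and C1ql1 were lower in the Dbx2-led cells without being absent. Gpr17 and Matn4 had 0 UMIs in the Dbx2-led cells and were at least 7.81-fold and 7.12-fold higher in the Sox10-led cells, set against 3 UMIs over the group. Bcas1 was at 144 and 93.6 CPM, a ratio of 1.54 (0.979 to 2.50). Of these, Pdgfra had 54 UMIs in the Dbx2-led cells, while Lhfpl3, Cspg4, C1ql1, Gpr17 and Matn4 had 0 to 9 and reached 20 UMIs only through the Sox10-led cells, so that no count of members is drawn. Of all 7299 genes tested, 14.0% were higher and 4.62% lower in the Sox10-led cells.

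In the same cells Olig1 or Olig2 was found together with Pdgfra in 90% (83.2 to 94.7) of Sox10-led and 50% (32.4 to 67.6) of Dbx2-led cells, and in 85.4% and 17.6% after thinning. Sox10 was at 365 and 125 CPM and Egfr at 53.7 and 308 CPM in Sox10-led and Dbx2-led cells, values that describe the clustering, which could use these genes, and do not test it. Scrublet marked 7 Sox10-led and 0 Dbx2-led cells as doublets. A Dbx2-led subcluster of 34 to 36 cells appeared in 4 of 7 clusterings, with Pdgfra at 211 to 239 CPM and Lhfpl3 at 11.6 to 19.5 CPM. In the other 3, with at least 1000 genes per cell, without doublets or with 15 principal components, a single OPC-like subcluster was found.

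**Figure D4:**
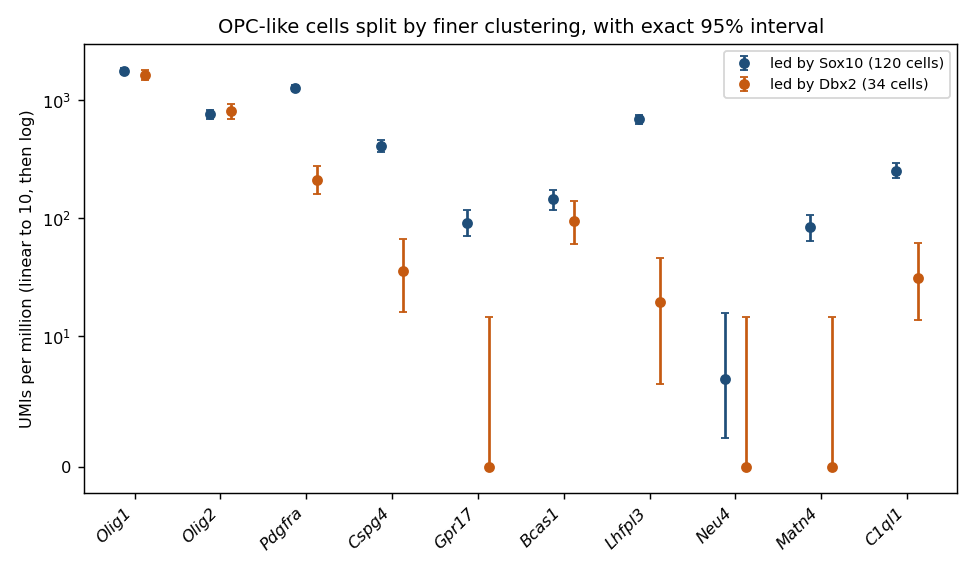
Level of the 10 genes in CPM (linear up to 10, then a log axis) in 120 Sox10-led and 34 Dbx2-led OPC-like cells, with exact 95% Poisson intervals. Points for Olig1 and Olig2 nearly coincide, whereas Pdgfra, Cspg4, Lhfpl3 and C1ql1 are lower and Gpr17 and Matn4 at 0 in the Dbx2-led cells.

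The wider lineage was described from lists of other genes, without those used to name OPC-like clusters. Markers of other classes, such as Sox6, Erbb4 and Pdgfrb, stayed in. The counts per list are to be read against the 7.21% of all genes higher and the 15.6% lower in OPC-like cells. With so few genes a list several counts lie near these shares. The other progenitor-like cells here still hold the 66 neuron-led cells, 64 of them marked as doublets, and the 106 shallow cells. Of the transcription factors, 1 of 9 with enough UMIs was higher in OPC-like than in other progenitor-like cells, Sox6 at 2.89-fold (2.49 to 3.35), and 2 were lower, the Notch target Hes5 at a ratio of 0.404 (0.354 to 0.459) and Zfp536 at 0.422 (0.207 to 0.774). Of receptors and ligands 3 of 14 were higher and 8 lower, but 6 of the 8 had 1 to 4 UMIs in OPC-like cells and reached 20 UMIs only through the others, so that nothing is read from that number. The neuregulin receptor Erbb4 was 17.3-fold (11.4 to 26.9), Gpr37l1 5.80-fold (3.32 to 10.1) and the endothelin receptor Ednrb 2.14-fold (1.91 to 2.40) higher. Pdgfrb, which reached 20 UMIs only through the other cells, had 1 UMI in OPC-like cells against 367. Its ratio was 0.0176 (0.000443 to 0.0984), from which no contrast is drawn. Likewise, Fgfr2 and Lpar1 had 2 UMIs each in OPC-like cells, at ratios of 0.0438 and 0.0736.

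Of 12 surface and matrix genes 2 were higher, the cadherin Pcdh15 at 9.63-fold (7.51 to 12.4) and Cacng4 at 5.67-fold (4.95 to 6.49), and 1 was lower, neurocan (Ncan) at 0.367 (0.312 to 0.429). Of 8 genes of differentiating oligodendrocytes 1 was higher, the calcium channel Itpr2 at 6.05-fold (4.69 to 7.80), and 1 lower, Gpr37, with 1 UMI against 19, which likewise reached 20 UMIs through the other cells. Enpp6 had 0 UMIs, Bmp4 5 UMIs and Myrf, the factor that turns on myelin genes, 7 UMIs in OPC-like cells. Of 12 myelin genes 3 could be compared, and Mbp, with 29 UMIs in OPC-like cells, was 4.35-fold (2.62 to 7.12) higher, Tspan2 being at 1.92 (0.976 to 3.55) and Ermn at 0.560 (0.0640 to 2.27). Transcripts of mature myelin were thus hardly counted in these cells. Between non-dividing and dividing cells, higher genes numbered 2 of 9 transcription factors, 4 of 14 receptors and ligands, 8 of 12 surface and matrix genes, 3 of 8 genes of differentiation and 1 of 3 myelin genes, against 10.6% of all genes, and 1 gene in all, of differentiation, was lower, against 6.62%. In the 758 cells the higher genes were 2 of 9, 6 of 14, 8 of 12, 3 of 7 and 1 of 3 in the same order, against 11.5% of all genes, and 1 was lower, against 7.73%. Within OPC-like cells the higher genes were 0 of 7, 0 of 8, 2 of 12, 0 of 4 and 0 of 1, against 12% of all genes, and 0 were lower, against 4.15%.

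Across 30 clusters and subclusters the genes whose level followed each member most closely were found by Pearson's r of log2(CPM + 1), a description in which all points share 1 library and differ in depth, and in which genes under 100 UMIs, Gpr17 and Neu4 among them, were not candidates. Olig1 was most like Olig2 (0.934) and Sapcd2 (0.899), and Olig2 most like Olig1 and Gm27239 (0.926). Sox10 was the closest gene to Bcas1 (0.931), Gpr17 (0.918), Pdgfra (0.906) and Matn4 (0.807), and the second closest to C1ql1 (0.858) after Bcas1 (0.870). Cspg4 was most like Adamts9 (0.910) and Itpr2 (0.898). Lhfpl3 was most like Prkcq (0.736) and Shc4 (0.723), and its r with Gpr17, which has 82 UMIs, was 0.751.

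Neurons were searched next. Neuron-like cells numbered 7584, and 9 of 9 genes were lower there than in progenitor-like cells, whereas 21.2% of all 18592 genes tested were higher and 19.6% lower in progenitor-like cells. Gpr17 and Bcas1, with 6 and 10 UMIs in neuron-like cells, reached 20 UMIs only through the progenitor-like cells. Olig1 was at 2.04 CPM (1.73 to 2.40) in neuron-like cells, Olig2 at 1.01 CPM (0.790 to 1.27) and Pdgfra at 1.26 CPM (1.01 to 1.54). Set against OPC-like cells, 6 genes lay at 0.105% to 0.131%, with Olig1 at 0.118% (0.0987 to 0.139) of the OPC-like level, Olig2 at 0.131%, Pdgfra at 0.125%, Cspg4 at 0.131%, Gpr17 at 0.121% and Bcas1 at 0.105%. The last rests on 10 UMIs, and its 0.138 CPM in neuron-like cells became 0.234 CPM with at least 1000 genes per cell. Olig1 UMIs were found in 98 neuron-like cells, of which 88 had 1 UMI, 19.4% had another of the genes, against 7.27% of neurons without Olig1, and 11.2% were marked as doublets, against 5.38% of all neuron-like cells. The highest count of Olig1 in a neuron-like cell was 26 UMIs, and that of Pdgfra 16. Without marked doublets Olig1 was at 1.69 CPM; the part of doublets in these values was not tested otherwise.

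Lhfpl3, C1ql1 and Matn4 exceeded these fractions. Lhfpl3 was at 5.603 CPM (5.07 to 6.18) in neuron-like cells, 1.08% (0.944 to 1.23) of its OPC-like level, C1ql1 at 0.662 CPM (0.488 to 0.878), 0.337% (0.240 to 0.464), and Matn4 at 1.39 CPM (1.14 to 1.69), 2.24% (1.62 to 3.12). Neuron-like cells, 68.6% of the cells kept, held 40.2% of all Lhfpl3 UMIs and 51.8% of all Matn4 UMIs. An unnamed cluster of 1678 cells outside these classes had a median of 1039 UMIs. There Matn4 was at 6.09% (2.15 to 14.03) of its OPC-like level on 6 UMIs, Lhfpl3 at 0.486% and Olig1 at 0.437%. The higher fraction of Matn4 was thus not particular to neuron-like cells. Subclusters were made from the neuron-like and the 782 Eomes-led cells together. Over all neuron-like cells, 95 of 98 cells with Matn4 had 1 UMI. In the 4 largest subclusters Matn4 was at 0.757 to 1.46 CPM. In smaller ones it was at 0.988 to 6.50 CPM on at most 10 UMIs each, or had 0 UMIs, as in the 267 Lhx6 interneuron-like cells, which allows up to 1.55 CPM.

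Among the neuron subclusters with over 30 Lhfpl3 UMIs, its level was highest in 267 Lhx6 interneuron-like cells led by Sst and Nxph1, at 21.8 CPM (15.7 to 29.4), and in 96 layer VIb neuron-like cells led by Ctgf, at 21.2 CPM (14.6 to 29.8). These could not be told apart. With 6 UMIs each, 395 unnamed cells led by Nrxn3 and Gria1, at a median of 797 UMIs, were at 21.5 CPM (7.89 to 46.8) and 50 striatal-type inhibitory neuron-like cells at 12.99 CPM (4.77 to 28.3), so that their place in the order is not settled. The 201 Adarb2 interneuron-like cells also had 6 Lhfpl3 UMIs, at 1.08% (0.395 to 2.37) of the OPC-like level. Cells led by Nr4a2 (177 cells) were at 9.56 CPM (5.99 to 14.5), those led by Scg2 (449 cells) at 7.57 CPM (5.52 to 10.1), those led by Lmo4 (1152 cells) at 6.87 CPM (5.61 to 8.32) and those led by Rorb (1146 cells) at 6.50 CPM (5.22 to 7.998). Layer VI neuron-like cells (971 cells) were at 1.08 CPM (0.519 to 1.99). Cells led by Adamts2 and Eif1b (1085 cells) were at 0.931 CPM (0.402 to 1.83) and those led by Sema3c (751 cells) at 0.988 CPM (0.269 to 2.53). Lhfpl3 therefore spanned subclusters whose intervals lie far apart. Without marked doublets it was at 24.2 CPM in Lhx6 interneuron-like and 5.51 CPM in all neuron-like cells.

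By cells, 11.2% (7.71 to 15.7) of Lhx6 interneuron-like cells had a Lhfpl3 UMI at a median of 6034 UMIs, and 17.7% (10.7 to 26.8) of layer VIb neuron-like cells at 16290, against 0.533% of Sema3c-led neurons at 5748 and 0 of 193 Cntnap2-led progenitor-like cells at 7774. After thinning the shares were 4.08% and 3.16%, and 0.929% over all neuron-like cells against 4.38% unthinned. The same Lhx6 interneuron-like cells held Olig1 in 3, Olig2 in 1 and Pdgfra in 1 of 267 cells. Of 332 neurons with Lhfpl3, 82.5% had 1 UMI, 7.83% had another of the genes against 4.28% of neurons without it, and 10.8% were marked as doublets. They were also deeper, with a median of 14490 UMIs against 8746.

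**Figure D5:**
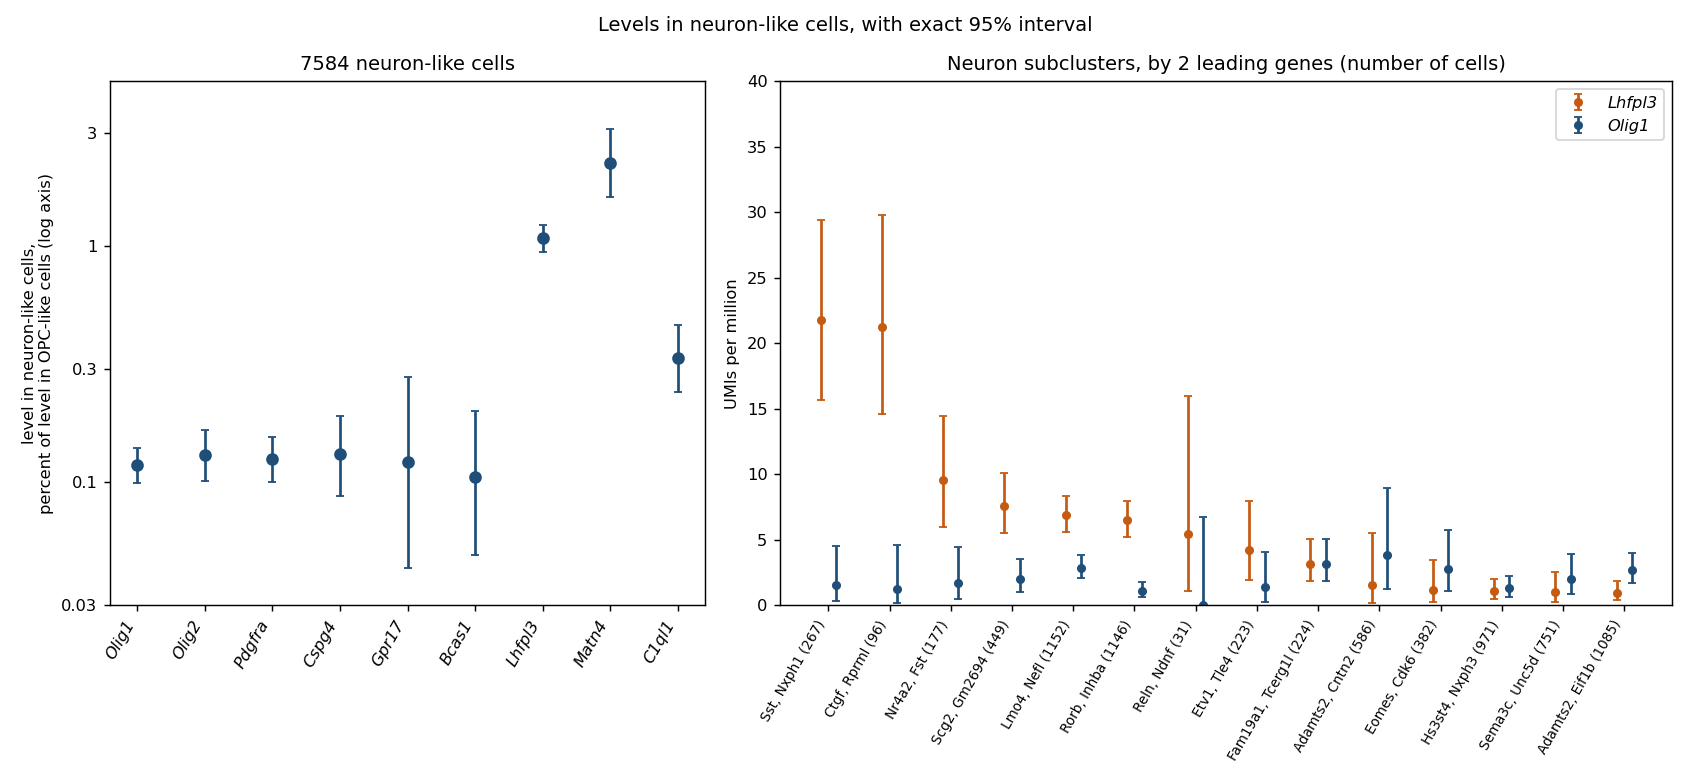
Left, level of 9 genes in neuron-like cells as percent of the level in OPC-like cells (log axis); right, CPM of Lhfpl3 and Olig1 in neuron subclusters, both with exact 95% intervals. Olig1, Olig2, Pdgfra, Cspg4, Gpr17 and Bcas1 lie near 0.1%, and Lhfpl3 and Matn4 at 1.08% and 2.24%. Among the subclusters plotted Lhfpl3 is at 21.8 CPM in Lhx6 interneuron-like and 21.2 CPM in layer VIb neuron-like cells. Not plotted are the shallow Nrxn3-led, the 50 striatal-type, the 201 Adarb2 interneuron-like, the 94 Ccnd2-led and the 86 Npy-led cells.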

How the data were processed

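The authors deposited a table of unnormalized UMI counts, genes by cells, of 1 library made with a 10x 3′ kit. Their methods state that Cell Ranger was run by a company, and the submitters' processing notes name Cell Ranger 2, STAR, Seurat and the build mm9. Reads are counted at the 3′ end, so levels are compared within a gene only. Only cells in which at least 200 genes were detected entered (4 did not). In Seurat 5.3.0 (R 4.3.3), 2000 variable genes without the 10 genes, 30 principal components, 20 neighbours and Louvain at resolution 0.3 (0.6 for subclusters, 1 for the finer split) were used. A cluster took its best-scoring class if at least 3 markers were in at least 10% of its cells and its 10 leading genes did not go against it; subclusters needed a marker of their own among these. Dividing cells lay above Otsu's cut on log2(CPM + 100), 1403 CPM of division genes. Scrublet (scanpy 1.11.5, expected rate 8%) marked 530 cells (4.79%), which were kept. CPM left out mitochondrial genes. Intervals are exact Poisson, binomial (Clopper-Pearson) and conditional ones from scipy 1.17.1, and scripts were tested on simulated data. Folds needed at least 20 UMIs over both classes. Named beside the 10 genes are, for each wider list, up to 3 genes with the largest and smallest ratio, and for each gene the 2 most alike with at least 100 UMIs; other genes were named after their values were seen. The members and lists were chosen with earlier results of these data known. E-boxes were counted in RefSeq windows of GRCm38.p6, which is not the build of the counts.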

Additional observations from a re-analysis of the deposited data

How the results depend on the processing

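No paired analysis was possible because a single WT library was used. Within OPC-like cells, the number of genes at least 2-fold higher in non-dividing cells was 1, and it was 2 with at least 1000 genes per cell, with the lower division cut tried (0.5 times its CPM) and with the upper (2 times). The share of Olig1-positive progenitor-like cells with Olig2 was 75.2% and 54.3% after thinning to 2000 UMIs. Neuron-like cells with Lhfpl3 were 4.38%, 0.929% after thinning and 0.765% when 2 UMIs were required. Of the wider lists, 8 genes were higher in OPC-like cells, and 13 with no filter on UMIs, while 12 were lower, 20 with no filter and 4 at a fold of 4. The count of 7 genes higher in non-dividing progenitor-like cells stayed within 1.5-fold under the alternatives run. Ratios near 1 fell on either side of it: for Olig2 in progenitor-like cells they ran from 0.918 to 1.12, and within OPC-like cells from 0.871 to 1.47 for Bcas1, 0.719 to 1.14 for Cspg4 and 0.947 to 1.23 for Lhfpl3, so that no direction is given for these. Single ratios moved with the division cut: at the upper cut the non-dividing over dividing ratio was 9.43 for Lhfpl3, 44.8 for Gpr17, 6.60 for Cspg4, 5.62 for C1ql1 and 3.11 for Pdgfra, and at the lower cut 2.99 for Lhfpl3. The dividing share of OPC-like cells was 24.2% and 3.92% at these cuts. The Olig2 ratio within OPC-like cells was 1.06 at the lower cut and 0.996 with Top2a or Mki67 as the mark of division, so that its interval then held 1. The Matn4 ratio there was 1.265 with that mark, which ends its call, and 6.03 with at least 1000 genes per cell, a setting that also moved Bcas1 in neuron-like cells from 0.138 to 0.234 CPM. The cause of these shifts was not tested. Leaving out the shallow and neuron-led subclusters was chosen after seeing the data. Neu4 is limited by its few UMIs, and the dividing OPC-like class by its 17 cells.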

Other observations

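Cspg4 was also found outside the neural lineage and in rare neurons. In 21 mural-like cells, led by Rgs5 and Vtn, which are known to carry NG2 on vessel walls, it was at 378.5 CPM (286 to 491.5) and in 90.5% (69.6 to 98.8) of cells, with 56 UMIs. A cluster of 63 cells led by Cldn5, with endothelial and microglia genes, had 17 Cspg4 UMIs in 4 cells at 27.1 CPM (15.8 to 43.4). In 31 Cajal-Retzius-like neurons, led by Reln, Cspg4 was at 14.6 CPM (6.29 to 28.7) and in 7 cells (22.6%), at a median of 17130 UMIs, and C1ql1 at 10.9 CPM (4.01 to 23.8) and in 4 cells, against 0.414 and 0.662 CPM over all neuron-like cells. C1ql1 had 0 UMIs in the mural-like and the Cldn5-led cells. These values rest on few cells of 1 library.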
